A study of Mus musculus with 15 samples.

Results

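The 32 genes described here carry glucose into the cell, break it down by glycolysis, export lactate, and store or release glycogen. They were found by gene symbol among 56953 genes in tables from 15 bulk RNA-seq libraries of mouse muscle stem cells (MuSCs, or satellite cells) and quadriceps femoris muscle. All 32 were present, in 33 records, because Aldoa had a second, low record (0.12 to 6.66 TPM in the 15 libraries). The genes were chosen by name and role, with earlier results of these data known.

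The study asked whether autologous transplantation of MuSCs changes the transcriptome of endogenous MuSCs and of hindlimb muscle. The mice were wild type, of strain 129, 10 weeks old and labelled male, with 10 animals stated and 9 mouse numbers in the titles. MuSCs were obtained by biopsy from mice 5, 6 and 11 before transplantation (3 libraries) and again, outside the transplanted area, afterwards (3 libraries). Whole quadriceps came from 6 transplanted mice (4, 14, 94, 5, 6 and 11) and 3 sham-operated mice (3, 192 and 12). The sources used here give neither the interval after transplantation nor how the MuSCs were purified or cultured. The mice with sham surgery carry a treatment entry that names transplantation and were told apart by their titles. Libraries are named by group and mouse, such as before 5 or sham 12, and no source says how many animals or biopsies went into each, so a p-value measures the spread between these libraries.

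Depth was 17.09 M to 22.98 M estimated counts per library. The MuSC marker list (Pax7, Myf5, Myod1 and 6 others) summed to 942 to 1564 TPM in MuSC libraries against 55.7 to 83.7 TPM in muscle. Myod1 carried most of this sum (532 to 958 TPM), Pax7 was at 11.8 to 21.6 TPM in MuSC libraries and at most 0.26 TPM in muscle, and Chodl went the other way (0 to 0.25 TPM against 0.99 to 3.02 TPM). The 8 differentiating myocyte markers summed to 399 (after 11) to 2114 TPM (after 5) in MuSC libraries and 127 to 553 TPM in muscle. Mature myofibre markers such as Ckm and Acta1 summed to 910 to 12370 TPM in MuSC libraries against 103400 to 136600 TPM in muscle. Cell cycle markers summed to 553 to 836 TPM in MuSC libraries and 17.6 to 26.5 TPM in muscle. Mitochondrial transcripts took 1.20% of the counts of after 11 and 4.40% to 6.30% of those of the other MuSC libraries. Against the label of male, Xist was above 1 TPM in 14 libraries and Y-linked transcripts summed to at most 0.31 TPM in any library. The exception for Xist was transplanted 4, at 0.01 TPM, where Kdm5d was at 0.11 TPM and Ddx3y, Eif2s3y and Uty were at 0. The authors deposited muscle in 2 separate files, here called the 2-sham set (transplanted 4, 14 and 94, sham 3 and 192) and the 1-sham set (transplanted 5, 6 and 11, sham 12). In bulk RNA, fewer cells of a type and less RNA per cell cannot be told apart.

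As background, many steps of glycolysis can be run by several isozymes, products of separate genes that catalyse the same reaction with different kinetics and regulation. Muscle fibres are known for a dedicated set, which includes muscle phosphofructokinase, muscle phosphoglycerate mutase, beta-enolase and muscle glycogen phosphorylase, and for the insulin-responsive glucose transporter GLUT4. Precursor cells and many other tissues use widely expressed forms of the same enzymes. Several of these genes, Gapdh above all, have processed pseudogenes in the mouse genome, so their counts may share reads with copies.

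Levels are given in TPM, which divides by transcript length, scales every library to the same total and so allows genes to be compared within a library. By TPM, the 32 genes together took 4.06% ± 0.38 of all transcripts in muscle (SD, n = 9, range 3.57% to 4.79%) and 1.59% ± 0.25 in MuSC libraries (SD, n = 6, range 1.28% to 1.90%), so every muscle library lay above every MuSC library. Aldoa, the aldolase of glycolysis, alone made up 39.7% ± 1.54 of the summed level in muscle (SD, n = 9) and 12.1% ± 2.06 in MuSCs (SD, n = 6). Gapdh, the dehydrogenase in the middle of the pathway, led in MuSCs with 34.3% ± 4.91 of the sum and held 12.8% ± 1.16 in muscle. Aldoc, the brain-type aldolase, was at most 0.81 TPM in any library.

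**Figure D1:**
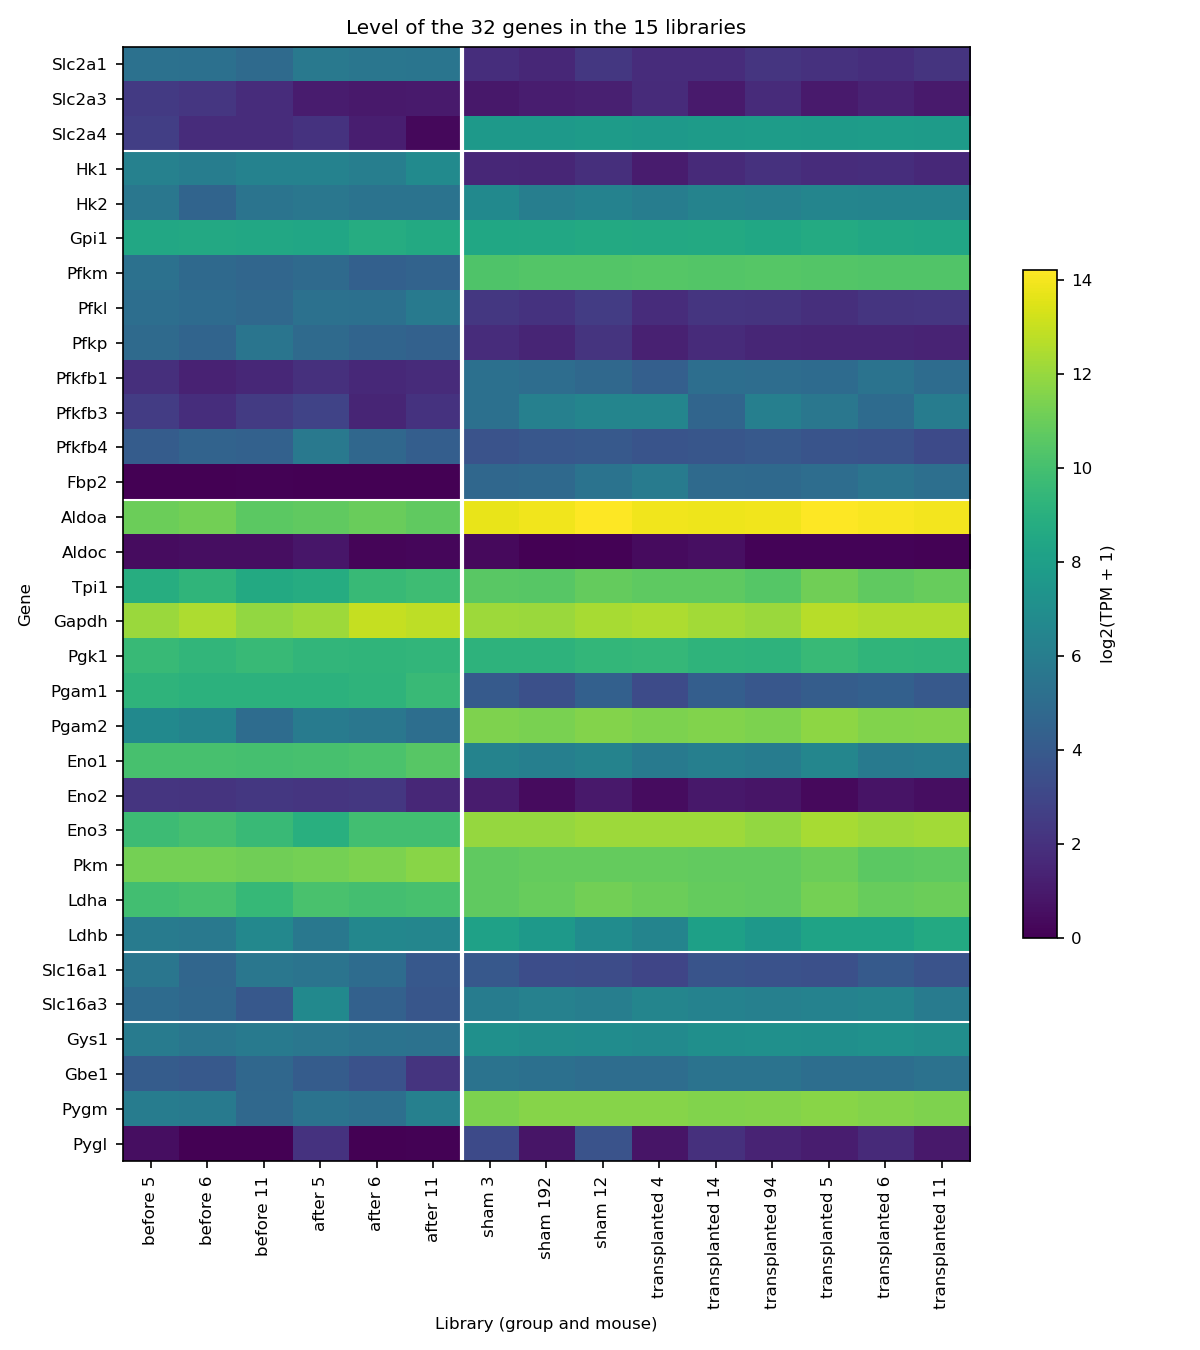
Level of each of the 32 genes (rows, grouped by role) in each of the 15 libraries (columns), as log2(TPM + 1) in colour. MuSC libraries stand left of the white line and muscle libraries right of it, and Pfkm, Pgam2, Pygm and Slc2a4 are bright only on the right, while Pgam1, Eno1, Hk1 and Slc2a1 are brighter on the left.

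Isozyme make-up differed between MuSCs and muscle in most of the families. For each family, the share of each isozyme in the summed TPM of its family was taken within each library, which needs no scaling between libraries. A family here holds only the member genes described here, so any other isozyme of the same step was not counted in its sum. Shares were averaged per mouse in MuSCs (n = 3) and compared with the muscle of the 6 mice that gave no MuSCs by an exact 2-sided permutation test, adjusted by Benjamini-Hochberg over the 18 shares tested. The MuSC and muscle shares did not overlap for 16 of the 18. Each of these 16 gave the smallest p this design allows (exact p = 0.0238, adjusted p = 0.0268). There is no background over all genes for shares. For levels, counts scaled to library size (CPM) did not overlap for 74.3% of all 14548 genes between MuSCs before transplantation and sham muscle. Between MuSCs after transplantation and transplanted muscle of the same mice, they did not overlap for 68.7% of 14437 genes. Shares of a family sum to a whole, so they are not independent of each other. The exceptions were Ldha and Pygm, which led on both sides among the members of their families, Ldhb and Pygl being the only others counted. Aldoa also led its family on both sides: it is among the 16 by a difference of 0.02 percentage points (99.978% in MuSCs and 99.999% in muscle), which rests on the low levels of Aldoc.

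**Figure D2:**
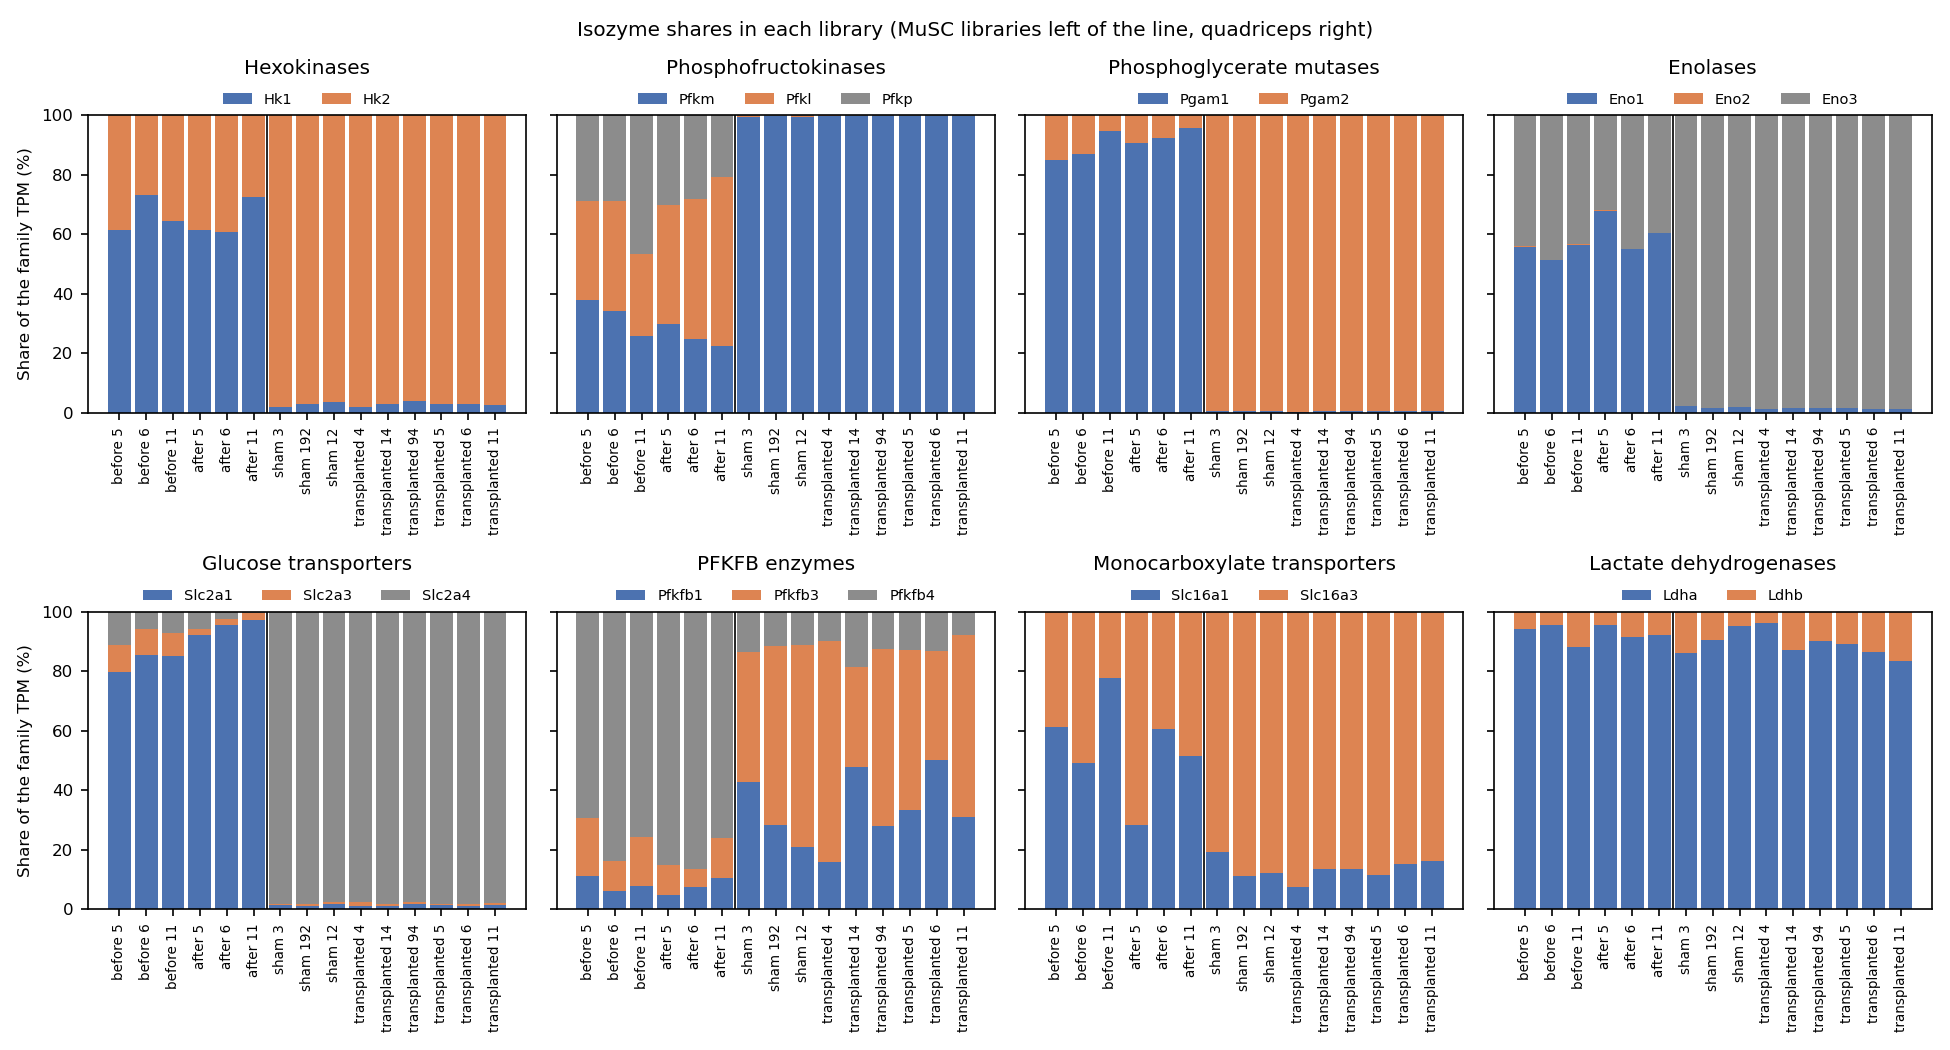
Share of each isozyme in the summed TPM of its family (y axis, %) in each library (x axis), for 8 families. MuSC libraries stand left of the black line and muscle right of it, and the Pgam1 share, for example, averages 90.9% over the MuSC mice and 0.50% over the 6 other mice, while Ldha holds 83.6% to 96.1% throughout.

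Phosphoglycerate mutase was led by a different gene in MuSCs and in muscle. Pgam1 (ENSMUSG00000011752.8), the widely expressed form, was at 607, 561 and 563 TPM in before 5, 6 and 11 and at 565, 592 and 788 TPM in after 5, 6 and 11. In muscle it was at 15.3, 9.86 and 19.2 TPM in sham 3, 192 and 12 and at 8.51 to 19.4 TPM (median 16.0) in the 6 transplanted libraries. Every MuSC library was therefore far above every muscle library. Pgam2 (ENSMUSG00000020475.4), the muscle form, was at 107, 85.4 and 31.3 TPM before and 58.3, 48.6 and 34.3 TPM after transplantation, in the same mouse order. In muscle Pgam2 was at 2766, 2623 and 3053 TPM in the shams and 2686 to 3523 TPM (median 2927) in transplanted mice. Pgam1 held 90.9% ± 3.89 of the pair in MuSCs (SD, n = 3 mice) and 0.50% ± 0.13 in muscle (SD, n = 6). The highest Pgam2 levels among MuSC libraries were in before 5 and before 6, which also had the highest mature myofibre marker sums (8502 and 12370 TPM), and the part of these markers in that order was not tested.

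The upstream sequences of this pair are shown because it had the largest difference in share among the families of 2 genes. Each line gives the 250 bases before the RefSeq transcription start (GRCm38.p6), 5′ to 3′ on the gene's strand, at chr19:41911621-41911870 (plus strand) for Pgam1 and chr11:5803797-5804046 (minus strand) for Pgam2. Capitals mark the E-box CAGCTG, the core ACGTG (on either strand, where it reads CACGT on the other) and a match to the MEF2 consensus.
Pgam1: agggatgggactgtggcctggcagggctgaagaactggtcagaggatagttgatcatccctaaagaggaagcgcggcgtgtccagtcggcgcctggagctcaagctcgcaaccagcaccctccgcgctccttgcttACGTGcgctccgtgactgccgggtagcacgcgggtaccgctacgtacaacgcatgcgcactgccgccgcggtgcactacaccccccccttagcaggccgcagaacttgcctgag
Pgam2: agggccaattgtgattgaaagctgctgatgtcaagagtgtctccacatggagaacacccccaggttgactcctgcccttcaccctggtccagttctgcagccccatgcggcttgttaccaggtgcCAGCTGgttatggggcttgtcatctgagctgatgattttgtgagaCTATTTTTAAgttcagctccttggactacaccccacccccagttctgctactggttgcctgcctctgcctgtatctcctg
Pgam1 held 1 ACGTG, the core bound by hypoxia-inducible and E-box factors, and neither of the other motifs. Pgam2 held 1 CAGCTG, a sequence that myogenic factors of the MyoD family can bind, and 1 MEF2 match. RefSeq promoters were matched for 30 of the 32 genes, with 45 starts, Slc2a3 and Slc2a4 being the genes without one. The bases just after the start were found in a GENCODE transcript of the gene for 35 of the 45 starts. They were not found for Pgam1 or Pgam2. CAGCTG stood in 15.6% of these 45 starts against 13% of all 32851 promoters of that length, the MEF2 consensus in 4.44% against 2.92%, ACGTG in 37.8% against 16.6%, CCGCCC (not in capitals) in 46.7% against 32.7% and TATAAA in 4.44% against 12.4%. Both strands were searched, and a CACGTG also counts as ACGTG. Some starts of Aldoa, Eno1 and Pfkm overlap, so a site there can count more than once. GC content ran from 36.4% (a Pfkm start) to 76.4% (Slc16a1) over the 45 starts, against a median of 52.4% for all promoters. The part of base content in these percentages was not tested. These matches describe letters in the window and not binding.

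Glucose transporters also differed in make-up. Slc2a4 (ENSMUSG00000018566.15), which encodes GLUT4, was at 5.31, 2.46 and 2.47 TPM in before 5, 6 and 11 and at 3.26, 1.27 and 0.25 TPM in the same mice after transplantation. Muscle held 200, 194 and 223 TPM in sham 3, 192 and 12 and 205 to 232 TPM (median 223) in transplanted mice. Slc2a1 (ENSMUSG00000028645.12), which encodes the basal transporter GLUT1, was at 38.4, 36.5 and 28.7 TPM before and 52.8, 46.9 and 44.7 TPM after, against 1.98 to 3.85 TPM in muscle. Slc2a1 thus held 89.2% ± 2.76 of the 3 transporters in MuSCs and 1.30% ± 0.26 in muscle, and Slc2a4 held 5.49% ± 2.49 and 98.0% ± 0.42 (SD, n = 3 and 6 mice). The summed level of the 3 transporters was nevertheless higher in muscle (197 to 236 TPM) than in MuSCs (33.7 to 57.2 TPM). Slc2a3, the high-affinity GLUT3, stayed under 5 TPM everywhere, at 2.52 to 4.37 TPM before, 0.99 to 1.14 TPM after and 0.86 to 2.33 TPM in muscle. The sequence upstream of Slc2a1 (chr4:119108495-119108744, plus strand) is given because it held most of its family in MuSCs, and it held 1 ACGTG and no CAGCTG or MEF2 match. ACGTG did not follow the direction of the levels. Hk1, Eno1, Pfkl and Pfkp, also higher in MuSCs, held 0 in every start. Lower in MuSCs, Hk2 (2 matches), Pfkfb3 (2 and 1 matches in its starts) and Ldha (5 matches in its first start) held it. A palindrome CACGTG counts as 2 matches, so matches can outnumber sites.
Slc2a1: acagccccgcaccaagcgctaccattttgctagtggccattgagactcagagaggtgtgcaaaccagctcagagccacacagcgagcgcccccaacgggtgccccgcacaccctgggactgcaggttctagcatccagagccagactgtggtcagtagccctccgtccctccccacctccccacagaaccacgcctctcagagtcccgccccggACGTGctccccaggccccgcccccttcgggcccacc

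Hexokinases trap glucose as glucose 6-phosphate. Hk1, the form of most tissues, was at 63.1 to 109 TPM in MuSC libraries and 1.14 to 3.07 TPM in muscle. Hk2, the insulin-regulated form of muscle, was at 23.01 to 49.4 TPM in MuSC libraries and 62.9 to 106 TPM in muscle, and its lowest value was in before 6. Hk1 held 65.6% ± 3.77 of the pair in MuSCs and 2.77% ± 0.88 in muscle. The summed level of the pair overlapped in TPM, with 86.1 to 150 TPM in MuSC libraries and 64.0 to 108 TPM in muscle. The make-up of the pair thus differed, while its total in TPM did not separate MuSCs from muscle. The pair was not summed in CPM. Gpi1, the isomerase of the next step, had overlapping ranges in TPM as well (345 to 446 TPM in MuSC libraries and 344 to 407 TPM in muscle). By CPM the Gpi1 ranges did not overlap. They were 462 to 766 in MuSCs before against 851 to 867 in sham muscle (edgeR adjusted p = 0.0636). After transplantation they were 379 to 794 against 854 to 994 in transplanted muscle of the same mice (edgeR adjusted p = 0.246).

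Phosphofructokinase commits sugar to glycolysis. Pfkm (ENSMUSG00000033065.15), the muscle subunit, was at 38.2, 27.7 and 24.7 TPM in before 5, 6 and 11 and 28.7, 19.8 and 22.2 TPM in after 5, 6 and 11. In muscle Pfkm was at 1248, 1342 and 1368 TPM in sham 3, 192 and 12 and 1314 to 1435 TPM (median 1361) in transplanted mice, above every MuSC library by more than the whole MuSC range. Pfkl, the liver subunit, was at 26.6 to 56.4 TPM in MuSC libraries and 2.55 to 4.67 TPM in muscle, and Pfkp, the platelet subunit, at 20.6 to 45.1 TPM and 1.45 to 3.43 TPM. In MuSCs the 3 subunits were near parity, with 29.1% ± 4.89 for Pfkm, 40.3% ± 3.08 for Pfkl and 30.6% ± 2.82 for Pfkp (SD, n = 3 mice), while Pfkm held 99.6% ± 0.11 in muscle (SD, n = 6). The order of the 3 subunits in MuSCs varied between libraries: Pfkl held 56.9% in after 11 and Pfkp 46.8% in before 11.

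The PFKFB enzymes make and remove fructose 2,6-bisphosphate, a potent activator of phosphofructokinase, and fructose bisphosphatase runs the opposite step. Pfkfb4 led in MuSCs with 79.5% ± 5.00 of the 3 PFKFB genes against 12.8% ± 3.05 in muscle. Pfkfb3 led in 7 of the 9 muscle libraries, with 56.6% ± 15.2 against 12.6% ± 3.90 in MuSCs, and Pfkfb1 held 30.6% ± 12.4 and 7.86% ± 1.16. Among muscle libraries Pfkfb3 was uneven, from 23.6 TPM in transplanted 14 to 88.9 TPM in transplanted 4, with 37.2, 71.0 and 88.1 TPM in sham 3, 192 and 12. Fbp2 (ENSMUSG00000021456.9), the muscle fructose bisphosphatase, was listed at 0 in 5 of the 6 MuSC libraries and at 0.06 TPM in before 11, against 25.4, 28.4 and 40.7 TPM in sham 3, 192 and 12 and 27.4 to 58.2 TPM (median 33.8) in transplanted mice. With no count in the 3 after libraries, Fbp2 was at least 718-fold lower there than in transplanted muscle, taking a floor of 3 counts over the group.

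From aldolase to pyruvate kinase, some steps have a single main gene. Aldoa was at 1577 to 2284 TPM in MuSC libraries and 13838 to 18892 TPM in muscle. Tpi1, triose phosphate isomerase, was at 395 to 883 TPM and 1410 to 2214 TPM. Gapdh (3799 to 7833 TPM against 4247 to 6642 TPM) and Pgk1 (617 to 770 TPM against 579 to 773 TPM) overlapped between MuSCs and muscle in TPM. By CPM both were lower in every MuSC library before transplantation than in any sham muscle library. The same held after transplantation against transplanted muscle of the same mice. Pkm, pyruvate kinase, was at 2238 to 3307 TPM in MuSC libraries and 1610 to 2050 TPM in muscle, ranges that did not overlap in TPM, while its log2 difference on counts was -0.18 ± 0.29 before against sham and 0.08 ± 0.42 after against transplanted (SE, edgeR adjusted p = 0.606 and 0.886), so no direction is given for it. Splice forms of Pkm are not separated in gene-level values.

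Enolase, the step before pyruvate kinase, was shared between genes in MuSCs and not in muscle. Eno1, alpha-enolase, was at 1081, 1073 and 1020 TPM in before 5, 6 and 11 and at 1072, 1183 and 1459 TPM in after 5, 6 and 11, against 56.8 to 90.1 TPM in muscle. Eno3, beta-enolase of muscle, was at 853, 1022 and 787 TPM before and 504, 968 and 961 TPM after, against 3827 to 5282 TPM in muscle. Eno1 held 57.7% ± 4.43 in MuSCs and 1.65% ± 0.27 in muscle. Eno3 held 42.1% ± 4.45 of the family in MuSCs and 98.3% ± 0.28 in muscle. Eno2, the neuronal form, held 0.17% ± 0.03 and 0.02% ± 0.01, at most 4.00 TPM in any library.

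Lactate is formed by lactate dehydrogenase and leaves through the monocarboxylate transporters. Ldha was at 718 to 1097 TPM in MuSC libraries and 1682 to 2441 TPM in muscle, and held 92.8% ± 2.41 of its pair in MuSCs and 90.8% ± 4.07 in muscle, a difference within the spread (exact p = 0.524, adjusted p = 0.555, n = 3 and 6). Ldhb, the heart form, was at 50.2 to 98.2 TPM in MuSC libraries and 84.8 to 402 TPM in muscle. Slc16a3, the exporter MCT4 of fast fibres, was at 13.1 to 107 TPM in MuSC libraries and 60.3 to 86.9 TPM in muscle. Slc16a1, the transporter MCT1, was at 13.9 to 48.6 TPM and 6.91 to 15.5 TPM, and its share of the pair was 54.7% ± 9.92 in MuSCs and 12.7% ± 3.84 in muscle. Over single MuSC libraries this share ran from 28.4% in after 5 to 77.6% in before 11, and Slc16a3 led in after 5 and before 6.

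Pygm, Gys1 and Gbe1, which break down, build and branch glycogen, were lower in every MuSC library than in any muscle library. Pygm (ENSMUSG00000032648.15), muscle glycogen phosphorylase, was at 60.7, 55.1 and 26.7 TPM in before 5, 6 and 11 and 41.6, 36.2 and 71.5 TPM in after 5, 6 and 11. In muscle it was at 2682, 3103 and 3195 TPM in sham 3, 192 and 12 and 2762 to 3250 TPM (median 3019) in transplanted mice. Its share of the pair with Pygl, the liver form, was 98.7% ± 2.29 in MuSCs and 99.9% ± 0.15 in muscle (exact p = 0.619, adjusted p = 0.619, n = 3 and 6). Gys1, muscle glycogen synthase, was at 39.2 to 58.4 TPM in MuSC libraries and 110 to 145 TPM in muscle, and Gbe1, the branching enzyme, at 3.47 to 26.1 TPM and 32.4 to 41.3 TPM. The highest Pygm among MuSC libraries was in after 11, which had the lowest mature myofibre marker sum (910 TPM). The sequences upstream of Pygm (chr19:6384158-6384407, plus strand) and Fbp2 (chr13:62858401-62858650, minus strand) are shown because both genes were among the lowest in MuSCs relative to muscle. Pygm held 2 CAGCTG and 1 ACGTG, and Fbp2 held 1 CAGCTG and the palindrome CACGTG, with no MEF2 match in either.
Pygm: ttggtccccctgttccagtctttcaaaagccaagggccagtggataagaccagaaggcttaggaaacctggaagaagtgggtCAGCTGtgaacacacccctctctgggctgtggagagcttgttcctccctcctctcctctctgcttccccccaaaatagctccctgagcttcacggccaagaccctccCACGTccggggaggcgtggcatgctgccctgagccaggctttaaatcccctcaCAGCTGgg
Fbp2: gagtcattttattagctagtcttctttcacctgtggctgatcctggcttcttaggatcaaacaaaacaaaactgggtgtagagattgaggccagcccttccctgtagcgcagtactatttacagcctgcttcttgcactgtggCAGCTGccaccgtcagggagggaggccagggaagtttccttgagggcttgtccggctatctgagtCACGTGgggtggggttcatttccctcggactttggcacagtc

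Levels were then tested gene by gene on the rounded estimated counts with edgeR's quasi-likelihood test and Benjamini-Hochberg adjustment over all genes, at a threshold of 0.05. MuSCs before transplantation were set against sham muscle (3 against 3, different mice), and MuSCs after transplantation against the transplanted muscle of mice 5, 6 and 11 (3 against 3). These contrasts share no library, but the MuSCs come from the same 3 mice in both. In the first, 27 of the 32 records tested were called, 8 higher and 19 lower in MuSCs, where 68.5% of all 14548 genes were called, 35.1% higher and 33.4% lower. In the other, 25 of 32 were called, 8 higher and 17 lower, where 58.4% of 14437 genes were called, 31.6% higher and 26.8% lower. Both counts of lower calls include the 2 records of Aldoa. Aldoc was not tested for its low counts. The median log2 difference of the members was -1.88 and -1.77, against 0.02 and 0.11 for all genes.

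**Figure D3:**
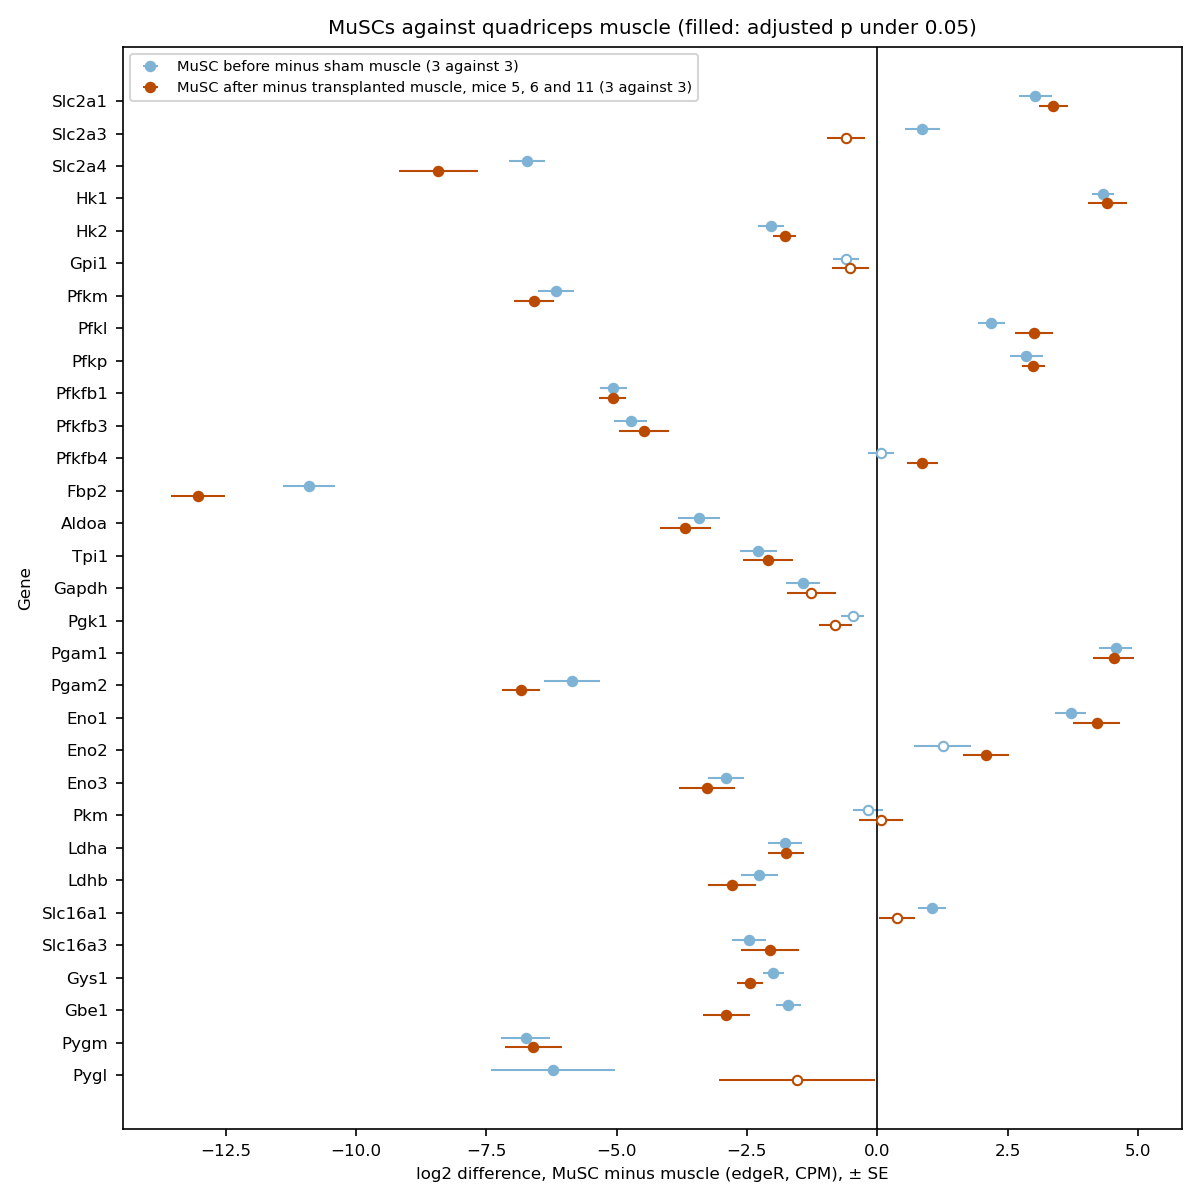
log2 difference between MuSCs and muscle (x axis, edgeR on counts, ± SE) for each gene tested (y axis), in the contrast of before against sham (light blue) and of after against transplanted muscle of mice 5, 6 and 11 (orange). Filled points have an adjusted p under 0.05, and the points of Pgam1, Hk1 and Eno1 lie above 3.5 in both contrasts while those of Pfkm, Pgam2, Pygm and Slc2a4 lie below -5.

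Across both contrasts, 23 of the 32 records were called with the same sign, 6 higher and 17 lower in MuSCs. The 6 were Pgam1, Hk1, Eno1, Slc2a1, Pfkp and Pfkl. The share of all genes called in both contrasts with the same sign was not computed, so these joint counts have no background beside them. Pgam1 differed by 4.58 ± 0.32 and 4.53 ± 0.39 on the log2 scale (SE, edgeR adjusted p = 4.0e-06 and 0.00015). The lower genes with the largest values were Fbp2 (-10.91 ± 0.50 and -13.03 ± 0.52, SE, fitted values that depend on the prior count), Slc2a4 (-6.72 ± 0.35 and -8.42 ± 0.75) and Pygm (-6.75 ± 0.47 and -6.60 ± 0.55). Pfkm followed with -6.16 ± 0.34 and -6.59 ± 0.38, and Pgam2 with -5.86 ± 0.53 and -6.84 ± 0.37. Pfkfb1, Pfkfb3, Aldoa, Eno3, Hk2, Gys1, Gbe1, Tpi1, Ldha, Ldhb and Slc16a3 were lower in both, from -1.70 for Gbe1 before against sham to -5.08 for Pfkfb1 after against transplanted. Slc16a3 lost its call in the second contrast by limma on log2(TPM + 1) (-1.24, adjusted p = 0.185) and without transplanted 6 (-1.98, edgeR adjusted p = 0.0509).

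Called in only the first contrast were Slc2a3 (0.86 ± 0.33, adjusted p = 0.0425), Slc16a1 (1.05 ± 0.27), Pygl (-6.22 ± 1.19) and Gapdh (-1.43 ± 0.33, adjusted p = 0.00389). Called in only the second were Eno2 (2.08 ± 0.44) and Pfkfb4 (0.87 ± 0.30, edgeR adjusted p = 0.0419, and 0.0688 with mouse as a block). Pkm, Gpi1 and Pgk1 passed in neither. Whether any of these differed between the contrasts was not tested. The Slc2a3 call ended under 7 of 11 alternatives, including without before 5, before 6 or any 1 of the shams (edgeR adjusted p = 0.0586 to 0.147). The Pfkfb4 call ended under 7 of 12, including without after 6 or any 1 of the transplanted libraries (edgeR adjusted p = 0.0904 to 0.153). Gapdh gained a call in the second contrast with DESeq2, with upper-quartile scaling, without after 5 and without after 11 (-0.95 to -1.42, adjusted p = 0.00486 to 0.0437). On the TPM scale the median of all genes was 0.55 and 0.58, with 6862 genes higher and 3150 lower in the first contrast and 6046 and 2711 in the second, in place of 5113 and 4857, and 4567 and 3868. There the median of the members was -1.13 and -0.97, Gapdh was at -0.03 in the first contrast and 0.05 in the second with no call in either, Pkm at 0.39 and Pgk1 at 0.26 in the first, and Gpi1 at 0.08 in the second, so no direction is given for these 4 genes. Cell source and deposited file cannot be told apart in these contrasts.

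No member passed the threshold between MuSCs after and before transplantation. After against before, 0 of 29 members tested and 0 of 13512 genes were called (edgeR, 0% of genes). Aldoc, Pygl, Fbp2 and the low record of Aldoa were not tested there for their low counts. At an unadjusted p under 0.05 there were 305 genes (2.26%) and 1 member, and DESeq2 called 16 genes, of which 0 were members. Of the members, 21 had a positive and 8 a negative difference, with a median of 0.30, where 51.4% of all genes were positive with a median of 0.02. On the TPM scale 16 members were positive and 13 negative with a median of 0.09, where 35.9% of all genes were positive with a median of -0.14. The median was 0.14 without after 11, 0.18 without before 11, 0.49 without before 6, and 0.13 with a term for the style of the sample codes in the labels. The counts scaled to library size (CPM) of the groups did not overlap for 4 of the 29, against 6.33% of all genes.

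**Figure D4:**
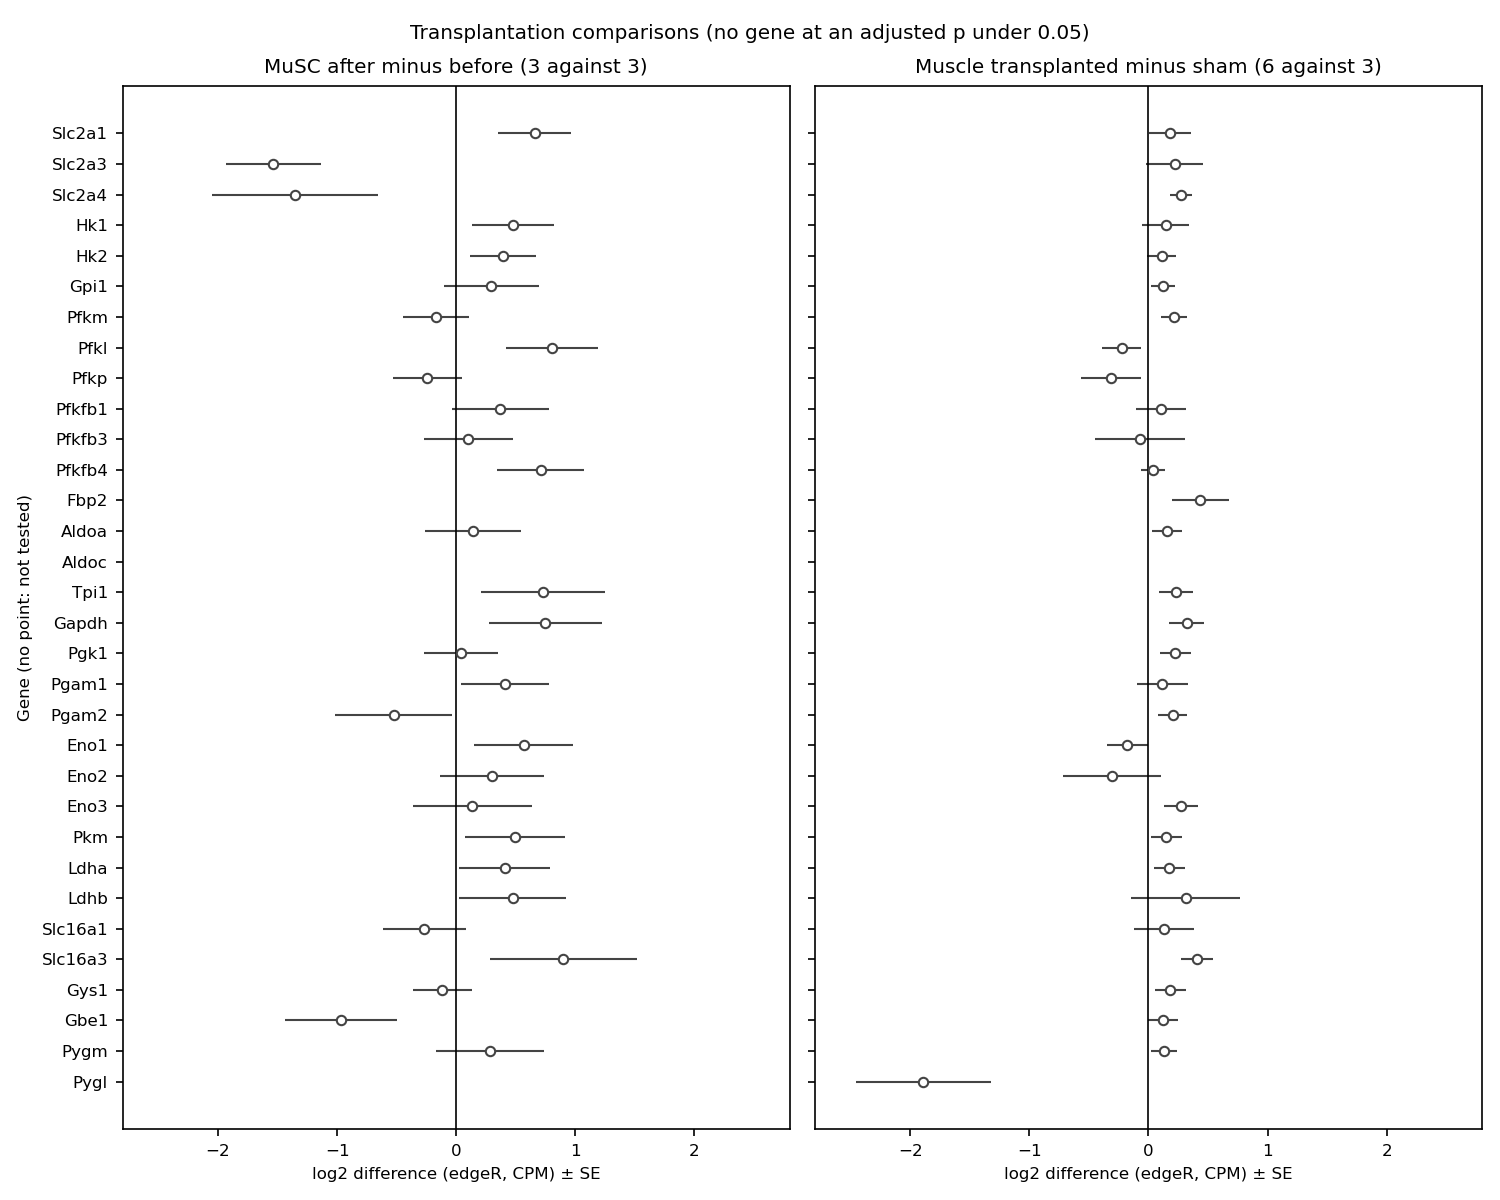
log2 difference (x axis, edgeR on counts, ± SE) for each gene (y axis) after against before transplantation in MuSCs (left) and in transplanted against sham muscle (right). No gene shown had an adjusted p under 0.05 in either panel, and Slc2a3 lies at -1.54 on the left and Pygl at -1.89 on the right.

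Each of the 3 glucose transporters differed with a single sign in the 3 mice. Slc2a3 was at 4.37, 3.76 and 2.52 TPM in before 5, 6 and 11 and 1.14, 0.99 and 1.02 TPM in after 5, 6 and 11, so every library after was below every library before. The difference was -1.54 ± 0.40 on the log2 scale (SE, edgeR unadjusted p = 0.00596, adjusted p = 0.873), lower in 3 of 3 mice, and the adjusted p ranged from 0.107 (DESeq2) to 1 over the alternatives. Slc2a1 differed by 0.66 ± 0.31 (adjusted p = 0.873), higher in 3 of 3 mice, and Slc2a4 by -1.35 ± 0.69, lower in 3 of 3. Hk2 (0.39 ± 0.28) and Pfkfb1 (0.37 ± 0.40) were higher in every library after than in any before by CPM, and Gbe1 (-0.96 ± 0.47) was lower, but in TPM the groups overlapped or met for these 3 genes. For Gbe1 the difference in mouse 11 was -2.53 on the log2 scale, against -0.27 and -0.41 in mice 5 and 6. Of the 29 members, Hk1, Hk2, Pfkfb1, Pfkfb4, Pfkl and Slc2a1 were higher in every mouse, as were 10.8% of all genes, and Gbe1, Slc2a3 and Slc2a4 were lower in every mouse, as were 10.3%. By shares, which need no scaling, Slc2a1 held 83.5% ± 3.15 of the 3 transporters before (SD, n = 3) and 95.0% ± 2.49 after (SD, n = 3), and Slc2a3 8.46% ± 0.86 and 2.08% ± 0.12, with no test made.

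Several other members stood apart in single libraries. In mouse 11, Pygm (1.79), Tpi1 (1.76), Pfkl (1.73) and Gapdh (1.35) had the members' largest positive log2 differences, where in mouse 5 they were at -0.53, -0.03, 0.09 and -0.05. After 11 also had the lowest mitochondrial share and the lowest mature myofibre sum of the MuSC libraries, and the labels' sample codes differ in style between the 2 MuSC libraries of mouse 11. Slc16a3 was at 107 TPM in after 5 against 13.1 to 29.8 TPM in the other MuSC libraries, and Pfkfb4 at 52.4 TPM there against 16.8 to 25.3 TPM. The sum of 9 fibroadipogenic markers was 183 TPM in after 5 against 39.0 to 83.9 TPM in the other MuSC libraries. Smoc2 alone gave 131 TPM of it. Pdgfra was also highest in after 5, at 0.98 TPM against 0.01 to 0.24 TPM in the other MuSC libraries. Cd34, Col1a1 and Col3a1 were higher in before 5 than in after 5, and Dpt, Pi16, Dpp4 and Lum were at 0 in after 5. The 8 cell cycle markers did not move together: Cdk1 was at 263, 465 and 518 TPM in after 5, 6 and 11 and 286, 274 and 262 TPM in before 5, 6 and 11, while Mki67 (0.77 TPM), Top2a (15.1 TPM), Ccnb1 (25.0 TPM) and Ccna2 (21.3 TPM) were lowest in after 11. The part of these in the members' differences was not tested.

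Muscle of transplanted mice (n = 6) did not differ from sham muscle (n = 3) past the threshold in any member. With the deposited set as a term, 0 of 32 records and 0 of 14375 genes were called (edgeR, 0% of genes). At an unadjusted p under 0.05 there were 1018 genes (7.08%) and 3 members, and DESeq2 called 6 genes, of which 0 were members. The median difference was 0.15, with 25 records positive and 7 negative, where 49.9% of all genes were positive with a median of 0.00. On the TPM scale it was 0.01 with 17 and 15, where 22.2% of all genes were positive with a median of -0.11. The groups' CPM did not overlap for 2 of the 32, Slc2a4 and Pfkm, where 2.11% of all genes did not overlap, but in TPM the same groups overlapped for both (Slc2a4, 194 to 223 TPM in shams and 205 to 232 TPM in transplanted mice).

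The 3 members with the smallest p in muscle were Pygl, Slc16a3 and Slc2a4. Pygl was at 8.27, 0.76 and 11.2 TPM in sham 3, 192 and 12 and at 0.72, 2.96, 1.70, 1.20, 2.20 and 0.95 TPM in transplanted 4, 14, 94, 5, 6 and 11, so that sham 192 lay among the transplanted libraries. Its difference was -1.89 ± 0.57 (SE, edgeR unadjusted p = 0.00632, adjusted p = 0.686). The sum of 7 adipocyte markers was 1444 TPM in sham 12, 626 TPM in transplanted 6, 563 TPM in sham 3 and 156 to 277 TPM in the other muscle libraries, and the part of fat tissue in Pygl was not tested. Slc16a3 differed by 0.40 ± 0.13 (adjusted p = 0.686, 60.7 to 75.3 TPM in shams and 60.3 to 86.9 TPM in transplanted mice) and Slc2a4 by 0.28 ± 0.09 (adjusted p = 0.686), or 0.10 on the TPM scale.

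Within the 2 sets the values differed in size. The members' median was 0.07 in the 2-sham set and 0.30 in the 1-sham set, against -0.0005 and -0.009 for all genes. In the 2-sham set 0 of 32 records had an edgeR unadjusted p under 0.05, where 401 of 14047 genes had one. In the 1-sham set 41 of 14855 genes were called, and 2 of them were members, Pygl (-2.58, edgeR adjusted p = 0.0483) and Ldhb (1.90, adjusted p = 0.0483), where sham 12 stands alone and its spread is taken from the transplanted libraries. Ldhb was at 274, 200 and 119 TPM in sham 3, 192 and 12 and at 84.8, 273, 191, 299, 300.4 and 402 TPM in transplanted 4, 14, 94, 5, 6 and 11, and in the 2-sham set its difference was -0.39. The lowest Ldhb levels, in transplanted 4 and sham 12, stood beside the lowest sums of slow fibre markers (334 and 754 TPM against 1802 to 4591 TPM elsewhere in muscle), and their part was not tested. Without sham 12, the median of the members over both sets was 0.08, and without sham 3 it was 0.25.

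**Figure D5:**
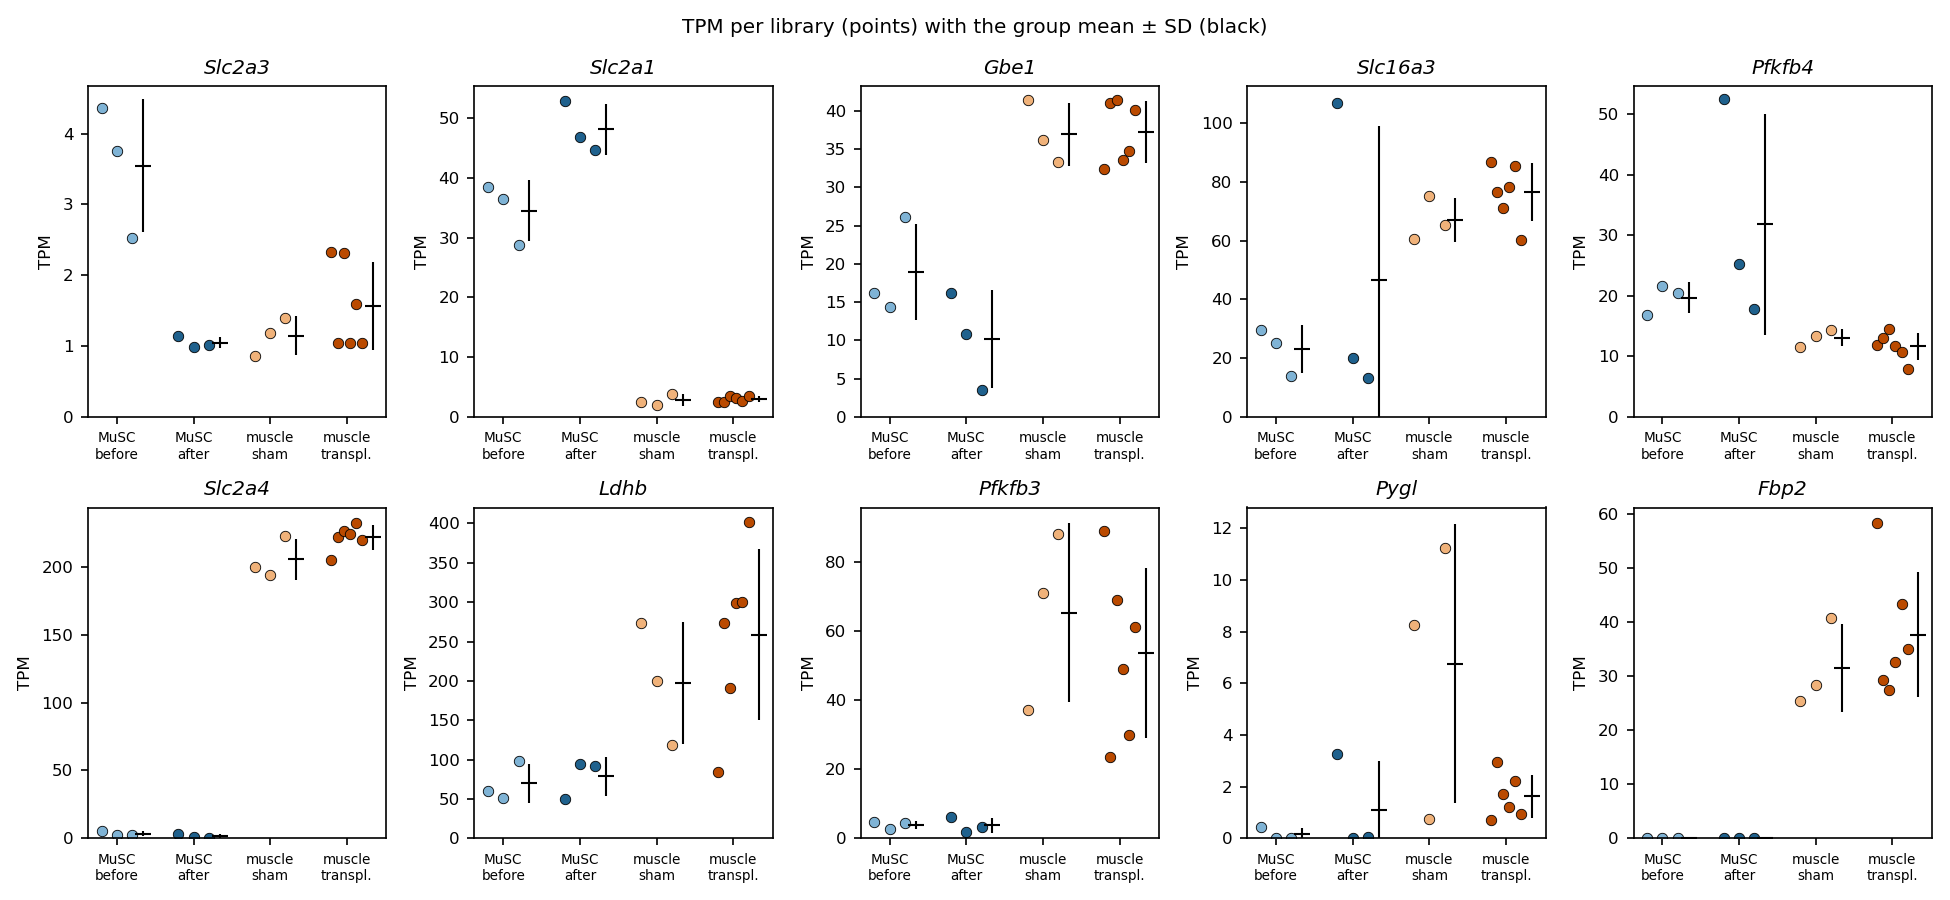
TPM of 10 genes (y axes start at 0) in each library (points) by group (x axis), with the group mean ± SD in black (n = 3, 3, 3 and 6). Slc2a3 is at 0.99 to 1.14 TPM in MuSCs after transplantation and 2.52 to 4.37 TPM before it, and Pygl is above 8 TPM in only 2 of the 3 sham libraries.

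Other genes of glucose metabolism were read from lists chosen by name, also with earlier results of these data known. Values are for MuSCs before transplantation against sham muscle (edgeR, ± SE). Each count stands beside the 35.1% of all genes called higher and 33.4% called lower there. Fitted differences of genes with few MuSC counts, such as Mlxipl, Txnip and Epas1 (means of 0.04, 0.12 and 0.13 CPM), depend on the prior count and are no bounds. Of 23 further glycogen genes tested, 4 were higher and 18 lower. The largest differences were those of Ppp1r3a, the glycogen-targeting subunit of protein phosphatase 1 in muscle (-10.64 ± 0.60), Phkg1, the catalytic subunit of muscle phosphorylase kinase (-9.52 ± 0.33), and Ppp1r3d, another targeting subunit, which had 0 counts in these MuSCs and a mean of 6.20 CPM in muscle. The pentose phosphate pathway, which makes NADPH and ribose from glucose 6-phosphate, had 5 of 7 genes higher and 1 lower. Its largest differences were those of Pgd (3.08 ± 0.38), Pgls (2.85 ± 0.38) and G6pdx (2.30 ± 0.44), the enzymes of its oxidative branch. For pyruvate entry into mitochondria, 11 of 13 were lower and 1 was higher, with Pdk2, a pyruvate dehydrogenase kinase, at -5.66 ± 0.25, Pdk3, another, at 4.84 ± 0.31 and Mpc1 of the pyruvate carrier at -3.87 ± 0.21.

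Of 12 genes of sugar transport and its control tested, 8 were lower and 0 higher, led by Txnip, an inhibitor of glucose uptake (-12.44 ± 0.63), its relative Arrdc4 (-6.86 ± 0.67) and Tbc1d4, which couples insulin to GLUT4 traffic (-6.41 ± 0.38). Gluconeogenesis and glycerol genes were lower for 6 of 7 and higher for 1. Among them Gpd1, glycerol 3-phosphate dehydrogenase, was at -9.05 ± 0.39, Pcx, pyruvate carboxylase, at -3.91 ± 0.28, and Pck1, which makes phosphoenolpyruvate, had 0 counts in MuSCs and a mean of 40.5 CPM in muscle. Among 9 regulators, 2 were higher and 4 lower, the largest being Mlxipl (ChREBP, -10.80 ± 0.43), the AMPK subunit Prkaa2 (-6.93 ± 0.36) and Ppargc1a (-3.66 ± 0.45). Hypoxia genes gave 2 higher and 9 lower of 16, led by Epas1, which encodes HIF-2 alpha (mean 154 CPM in muscle), Bnip3 (-2.92 ± 0.35) and Egln1 (-2.90 ± 0.19). The 7 minor isozymes and related enzymes gave 3 higher and 4 lower, among them Ldhd (-4.26 ± 0.26), Bpgm (-3.07 ± 0.17) and Eno4, which had 0 counts in sham muscle. Pck1 is also known from adipocytes and Epas1 from endothelium. Adipocyte markers summed to 1.87 to 19.6 TPM in MuSC libraries, with Plin1, Retn, Cidec, Lep and Cfd at 0 in each, and to 156 to 1444 TPM in muscle. The 5 endothelial markers summed to 0.27 to 1.75 TPM and 43.4 to 78.5 TPM, and the part of these cells in the counts was not tested.

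After transplantation against the muscle of mice 5, 6 and 11, 31.6% of all genes were called higher and 26.8% lower. There 4 of 22 further glycogen genes were higher and 16 lower, led by Ppp1r3a (-10.74 ± 1.18), Phkg1 (-9.75 ± 0.41) and the targeting subunit Ppp1r3c (-8.01 ± 1.09). Pentose phosphate genes were higher for 6 of 7 and lower for 1, with Pgd at 3.98 ± 0.39, G6pdx at 3.74 ± 0.30 and Pgls at 3.67 ± 0.58. Pyruvate entry genes were higher for 1 of 13 and lower for 11, with Pdk2 at -6.39 ± 0.45, Pdk4 at -5.77 ± 0.95 and Mpc1 at -4.27 ± 0.28. Sugar transport genes were lower for 8 of 12 and higher for 0, led by Txnip (-9.87 ± 1.34), Arrdc4 (-5.91 ± 1.18) and Tbc1d4 (-5.40 ± 0.61). Gluconeogenesis and glycerol genes gave 1 higher and 5 lower of 7, with Gpd1 at -9.69 ± 0.79, Pck2 at 3.85 ± 0.56 and Pck1 again at 0 counts in MuSCs. Regulators gave 1 higher and 4 lower of 9 (Mlxipl -9.10, Prkaa2 -7.50, Ppargc1a -3.64), hypoxia genes 2 and 7 of 15 (Epas1 -10.67, Bnip3 -3.64, Egln1 -2.73), and the minor isozymes 2 and 4 of 7 (among them Ldhd -3.99 and Bpgm -3.14).

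Between the groups of the transplantation comparisons, 0 genes of these lists were called in MuSCs or in muscle (edgeR). The smallest unadjusted p in MuSCs was that of Tkt, transketolase of the pentose phosphate pathway (1.06 ± 0.35, unadjusted p = 0.0175, adjusted p = 0.873), followed within its list by G6pdx (0.74 ± 0.32). The 2 genes of smallest p in the other lists, each with an adjusted p of 0.873 or more, were Vegfa (0.88) and Ndrg1 (0.9996) for hypoxia, Epm2a (-0.87) and Pgm5 (-1.42) for glycogen, Dld (-0.48) and Pdk4 (-0.68) for pyruvate entry, and Bsg (0.69) and Irs1 (-0.62) for sugar transport. They were Pcx (0.41) and G6pc3 (0.48) for gluconeogenesis, Esrra (0.73) and Six4 (-0.66) for regulators, and Tigar (0.23) and Galm (-0.19) for the minor isozymes. In muscle, with an adjusted p of 0.686 or more, those named by the same rule were Slc16a7 (-1.01), Slc2a5 (-3.14), G6pdx (-0.83), Tkt (-1.48), Gys2 (-1.66), Ppp1r3b (-1.05), Pdk2 (0.29), Dlat (0.21), Pck1 (-1.99), G6pc3 (0.17), Egln1 (0.21), Higd1a (0.17), Esrra (0.25) and Galm (-0.20). The adipocyte markers summed to 1444 TPM in sham 12, 563 TPM in sham 3, 626 TPM in transplanted 6 and 156 to 277 TPM in the other muscle libraries. The part of fat tissue in these differences was not tested.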

How the data were processed

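Bulk RNA-seq was deposited for 6 MuSC and 9 quadriceps libraries in 3 tables of 56953 genes. The labels' protocols name Trizol for the RNA and the NEBNext Ultra RNA kit for the libraries. The authors deposited, per the file headers, estimated counts, TPM and FPKM for each library. The submitters' processing notes name GRCm38 and mm10. Aligner, quantifier and annotation: not given in the sources used here. File coordinates were not used because 1446 of 52029 genes matched GENCODE GRCm38. Promoter sequences are from RefSeq (GRCm38.p6). FPKM was not used, nor were 3 columns of a library that matched no label.

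Estimated counts were rounded. Of all values in a library, zeros included, 7.40% to 8.82% were not whole. The rounded counts were tested with edgeR 4.0.16 (filterByExpr with a minimum count of 10, TMM, quasi-likelihood, Benjamini-Hochberg over all genes, threshold 0.05). SE is the log2 difference divided by the square root of F. The authors' TPM was used as deposited for levels and shares, and shares were compared by exact permutation. Scripts were tested on simulated data. Alternatives were DESeq2 1.42.0, RLE and upper-quartile scaling, no filter, leaving out each library, single tables, the mouse as a block, the style of the sample codes, and, added after seeing the data, limma 3.58.1 on log2(TPM + 1). Members and lists were chosen with earlier results of these data known. All 32 members are covered. Of each other list, the 3 called genes with the largest differences are named per comparison, or, where none was called, the 2 with the smallest p. Some genes that this rule names are not reported here.

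The labels give the same mouse numbers to both MuSC groups and to 3 muscle libraries and call the cells autologous, so the numbers pair the libraries. Across genes, the libraries' deviations from their group mean correlated at 0.31 in mouse 5, 0.39 in mouse 6 and -0.45 in mouse 11. Between different mice the values ran from -0.72 to 0.60. The sample codes start with a number in before 5, before 11 and after 5, and with a letter in before 6, after 6 and after 11. Pairs of libraries with the same style correlated at 0.31 to 0.60, and pairs of different style at -0.72 to -0.18. Xist was at 44.45 to 84.1 TPM in the number-first libraries and 2.63 to 10.2 TPM in the others. The part of style in these correlations was not tested.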

Additional observations from a re-analysis of the deposited data

How the results depend on the processing

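No result reversed past the threshold under any alternative run. The count of genes called after against before transplantation in MuSCs was 0 and became 16 with DESeq2. In transplanted against sham muscle it was 0 and became 6 with DESeq2, 12 with no filter, 1 in the 2-sham set, 41 in the 1-sham set (with 2 members called) and 0 to 4 when each library was left out. With the mouse as a block, after against before called 0 genes and 0 of 29 members, and after against transplanted muscle called 7615 genes and 24 members in place of 8435 and 25, the call lost being that of Pfkfb4. The 16 isozyme shares past the threshold were also 16 by shares of counts. They became 0 for before against sham alone and for after against transplanted 4, 14 and 94, where the smallest possible p is 0.1, and 0 to 16 when each mouse was left out, with 0 whenever a MuSC mouse was missing (smallest possible p 0.0714). In each of these settings 16 shares did not overlap. In the contrasts of MuSCs with muscle, 25 of the 27 and 23 of the 25 calls held under every alternative. The precision of the members' differences is given by their SEs, such as 0.40 for Slc2a3 in MuSCs and 0.09 for Slc2a4 in muscle.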
